A study of Sus scrofa with 28 samples.

Results

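TIMP1 and 2 of its binding partners, CD63 and APP, were followed in the infarct zone and the remote zone of the pig heart after myocardial infarction. The 3 genes were taken by symbol from the raw count tables, which list 17603 genes, and all 3 were measured in all 28 libraries. RNA was sequenced in bulk from 14 Landrace pigs, male and female, aged 3 months, whose left anterior descending artery was closed by a balloon for 60 min and then reperfused. All pigs had this infarct, so no heart was uninjured, and the remote zone came from the same ventricle as the infarct zone. At reperfusion the pigs received recombinant human Agrin (rhAgrin, a matrix protein, 33 µg per kg) or the control that the labels call PBS and the paper calls saline. The groups were rhAgrin infarct and remote on day 28 (4 pigs), PBS infarct and remote on day 28 (3 pigs), rhAgrin infarct and remote on day 3 (4 pigs), and PBS infarct and remote on day 3 (3 pigs). Each pig was sampled on 1 day only, in both zones.

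TIMP1 is a small secreted protein that blocks matrix metalloproteases, the enzymes that cut collagen and other matrix proteins. It is also known as a cytokine-like ligand, and in human cells it binds CD63, a tetraspanin of late endosomes, lysosomes, exosomes and the cell surface, which links it to β1 integrin. APP, the amyloid precursor protein, is a single-pass membrane protein cut by secretases and has been described as a further TIMP1 binding partner in human cells. In the injured heart TIMP1 is made by activated fibroblasts, CD63 is carried by most cells and is plentiful in those rich in lysosomes, and APP is widely expressed.

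TIMP1 (ENSSSCG00000012277) lies on chrX:42103251-42106289 (plus strand, Sscrofa11.1, RefSeq), inside SYN1, which lies on the other strand, with 0 exonic bases in common. CD63 (ENSSSCG00000000361) lies on chr5:21172275-21176225 (minus strand), and 119 and 190 of its exonic bases are shared with 2 RefSeq genes on the opposite strand, so its counts are uncertain to that extent. APP (ENSSSCG00000012022) lies on chr13:189434854-189716120 (minus strand). Short coding stretches are shown because they hold the parts by which the ligand and its receptor are known. In TIMP1 the capitals mark the codons that open the mature inhibitor in human TIMP1, the end that enters the metalloprotease active site. The stretch is the coding part of the first coding exon (chrX:42103252-42103372, plus strand). It is labelled first exon below, although the RefSeq model lacks the 5′ end of TIMP1. In CD63 the capitals mark the last 5 codons, which in human CD63 hold the lysosomal sorting signal, and the stretch is the coding part of the last exon (chr5:21172367-21172432, minus strand).
TIMP1 first exon: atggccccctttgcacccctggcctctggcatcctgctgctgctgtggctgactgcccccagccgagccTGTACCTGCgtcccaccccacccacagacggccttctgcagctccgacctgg
CD63 last exon: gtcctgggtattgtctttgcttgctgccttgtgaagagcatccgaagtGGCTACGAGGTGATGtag

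Libraries held 15383495 to 34767278 counts. Mitochondrially encoded genes took 5.78% to 10.6% of the counts in the 7 infarct libraries of day 3 and 29.1% to 34.1% in the 7 remote libraries of that day. Levels are therefore given as CPM, counts relative to a common library total, scaled by TMM, a method that sets the bulk of genes equal between libraries. The 2 zones of animal 573, a PBS pig of day 3, disagree on Y-linked genes: its infarct zone gave 173 reads of KDM5D, 328 of ZFY and 232 of EIF1AY, and its remote zone gave 0 of each, so these libraries may not come from 1 animal. The infarct column of 1 rhAgrin pig of day 3 (animal 577) carries a letter that the labels do not explain. Results are given with and without these 2 pigs. In the infarct library of 1 PBS pig of day 28 (animal 523) mitochondrially encoded genes took 6.83% of the counts, against 25.6% and 28.4% in the other PBS infarct libraries of day 28. Replicates were separate pigs.

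The first question was how far the ligand and its partners differed between the infarct zone and the remote zone of the same heart. On day 3 TIMP1 rose strongly, CD63 rose less, and APP fell. TIMP1 stood at 288, 316.5, 583 and 320.1 CPM in the infarct zones of rhAgrin pigs, against 35.2, 21.4, 13.7 and 25.1 CPM in their remote zones. In PBS pigs it stood at 389, 434 and 607 CPM in infarct zones, against 18.9, 23.7 and 17.3 CPM in remote zones. The lowest infarct library of day 3 was far above the highest remote library of day 3, so the zones did not overlap. How many of all genes did not overlap between zones was not counted, here or for CD63 and APP below. TIMP1 rose 16-fold in rhAgrin pigs (log2 4.00 ± 0.31 SE, n = 4 pairs, adjusted p = 8.47e-08, edgeR quasi-likelihood test with the pig as block) and 23.96-fold in PBS pigs (4.58 ± 0.37, n = 3 pairs, adjusted p = 1.69e-07). By that test 37.6% of 15409 genes rose in rhAgrin pigs and 34.6% in PBS pigs. Among those genes 2.18% had a larger log2 fold change than TIMP1 in rhAgrin pigs and 1.395% in PBS pigs.

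The rise of TIMP1 varied between pigs more than that of its partners. Pig by pig it ran from 8.17-fold to 42.6-fold in rhAgrin pigs and from 18.3-fold to 35.2-fold in PBS pigs. Animal 576, with the highest fold, had both the highest rhAgrin infarct level and the lowest remote level of day 3. Without animals 573 and 577 the log2 fold changes were 4.09 in rhAgrin pigs and 4.77 in PBS pigs.

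CD63 stood at 484, 356, 427 and 435 CPM in the day 3 infarct zones of rhAgrin pigs, against 196, 192, 164 and 181 CPM in their remote zones. In PBS pigs it stood at 457, 475 and 501 CPM in infarct zones, against 209.5, 199 and 168 CPM in remote zones. The 2 zones did not overlap, and the folds of single pigs lay between 1.85 and 2.98. CD63 rose 2.36-fold in rhAgrin pigs (log2 1.24 ± 0.11 SE, n = 4 pairs, edgeR adjusted p = 1.78e-07) and 2.52-fold in PBS pigs (1.34 ± 0.12, n = 3 pairs, adjusted p = 5.18e-07). Unlike for TIMP1, 18.7% and 16.3% of genes had a larger log2 fold change than CD63 in rhAgrin and PBS pigs.

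APP went the other way. It stood at 279, 355, 357 and 274 CPM in the day 3 infarct zones of rhAgrin pigs, against 635, 707, 892 and 489 CPM in their remote zones. In PBS pigs it stood at 295, 360 and 301 CPM in infarct zones, against 731, 615 and 713 CPM in remote zones. Every infarct library of day 3 was below every remote library. APP fell by 1.06 ± 0.12 on the log2 scale in rhAgrin pigs (n = 4 pairs, edgeR adjusted p = 2.83e-06) and by 1.09 ± 0.14 in PBS pigs (n = 3 pairs, adjusted p = 1.09e-05), where 33.1% and 32.2% of genes fell. The size of this fall depends on the scaling: with library totals alone the day 3 median of all genes moved to 0.76 in rhAgrin and 0.69 in PBS pigs, and APP then fell by 0.35 and 0.44, still past the threshold. Of the genes called, 5793 rose and 5094 fell in rhAgrin pigs and 5328 rose and 4963 fell in PBS pigs, whereas with library totals alone 9588 of 11995 and 8768 of 11351 rose.

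**Figure D1:**
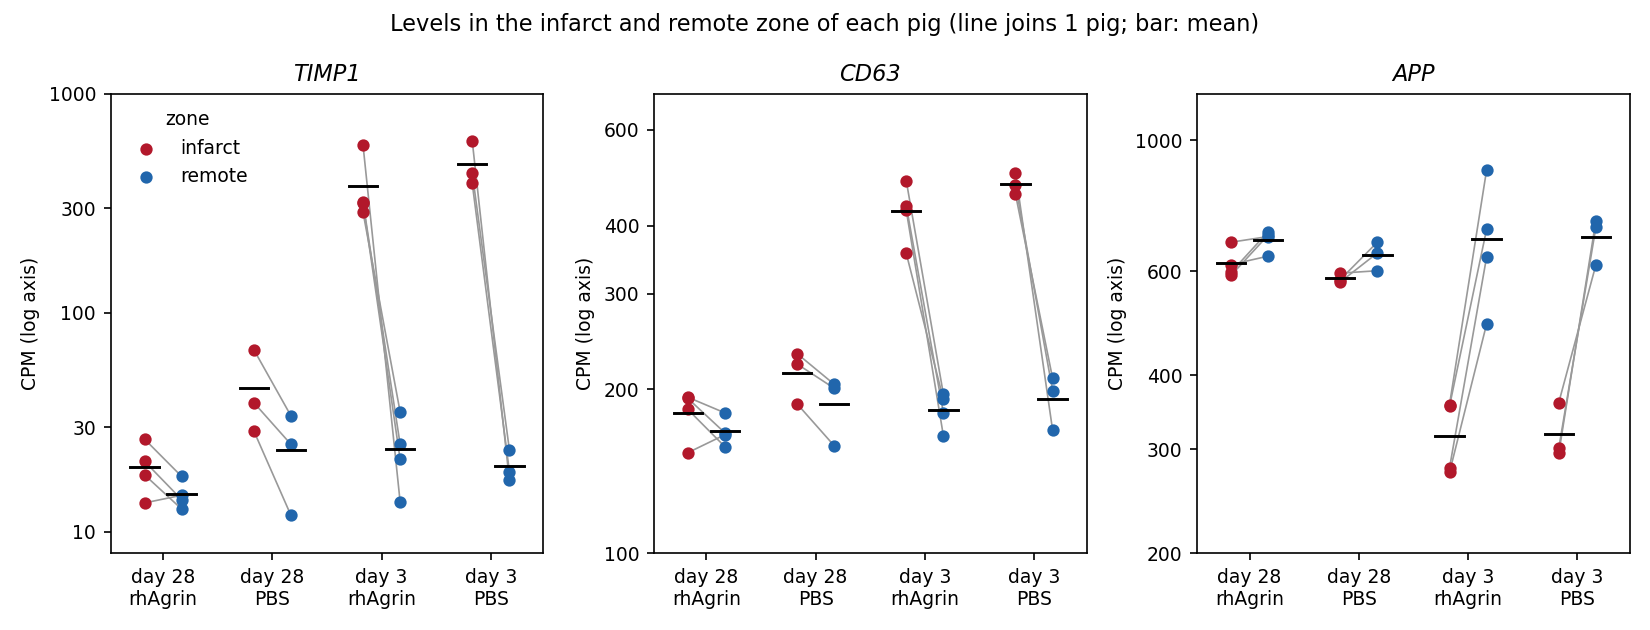
Level of TIMP1, CD63 and APP in every library, as TMM-scaled CPM on a log axis, by day and treatment, with infarct zones left of remote zones. Each line joins the zones of 1 pig, and black bars are group means. On day 3 TIMP1 lay between 288 and 607 CPM in infarct zones and between 13.7 and 35.2 CPM in remote zones, while on day 28 its highest value was 67.9 CPM.

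On day 28 the zones had come much closer. TIMP1 stood at 13.6, 18.2, 21.0 and 26.5 CPM in the infarct zones of rhAgrin pigs, against 14.7, 12.7, 14.04 and 17.9 CPM in their remote zones. These overlapped, and 1 pig (animal 519) had slightly less TIMP1 in its infarct zone. In PBS pigs TIMP1 stood at 67.9, 28.9 and 38.9 CPM in infarct zones, against 33.9, 11.9 and 25.1 CPM in the remote zones of the same pigs. Each PBS pig was higher in its infarct zone, although the 2 sets overlapped. TIMP1 rose by 0.98 ± 0.32 on the log2 scale in PBS pigs (1.98-fold, n = 3 pairs, edgeR adjusted p = 0.0398), where 12.7% of genes rose and 12.3% fell. These shares rest on 1 pig and on the scaling: 852 genes were called without animal 523 (637 of them higher), and with library totals alone 5161 of 5652 called genes rose. This call is marginal. It was lost without animal 523 (log2 0.97, adjusted p = 0.206) and without 5 other pigs (animals 522, 536, 544, 547 and 548, adjusted p = 0.05003 to 0.166), without the pig as block (0.96, adjusted p = 0.0997) and without a filter on low counts (0.97, adjusted p = 0.0515). In rhAgrin pigs the log2 difference was 0.39 ± 0.28 (n = 4 pairs, adjusted p = 1). In that comparison edgeR called 0 of 15409 genes, with 599 at an unadjusted p under 0.05 and 4 called by DESeq2.

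CD63 and APP did not pass the test on day 28 with TMM scaling. With library totals alone CD63 did in PBS pigs (log2 0.54, edgeR adjusted p = 0.00836). In rhAgrin pigs CD63 stood at 153 to 194 CPM in infarct zones, against 157 to 181 CPM in remote zones, and in PBS pigs at 188 to 233 CPM in infarct zones, against 158 to 204 CPM in remote zones. Its log2 differences were 0.10 ± 0.11 in rhAgrin pigs (n = 4 pairs, adjusted p = 1) and 0.21 ± 0.12 in PBS pigs (n = 3 pairs, adjusted p = 0.223). APP stood at 590.5 to 672 CPM in infarct zones of rhAgrin pigs, against 637 to 700.3 CPM in remote zones, and at 576 to 596 CPM in infarct zones of PBS pigs, against 601 to 672 CPM in remote zones. Its log2 differences were -0.14 ± 0.12 in rhAgrin pigs (adjusted p = 1) and -0.12 ± 0.14 in PBS pigs (adjusted p = 0.571). APP was lower in the infarct zone of all 14 pigs, on both days, but on day 28 by at most 0.23 on the log2 scale. This direction depends on the scaling on day 28, since with library totals alone the fitted difference in PBS pigs was 0.22, of the other sign.

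**Figure D2:**
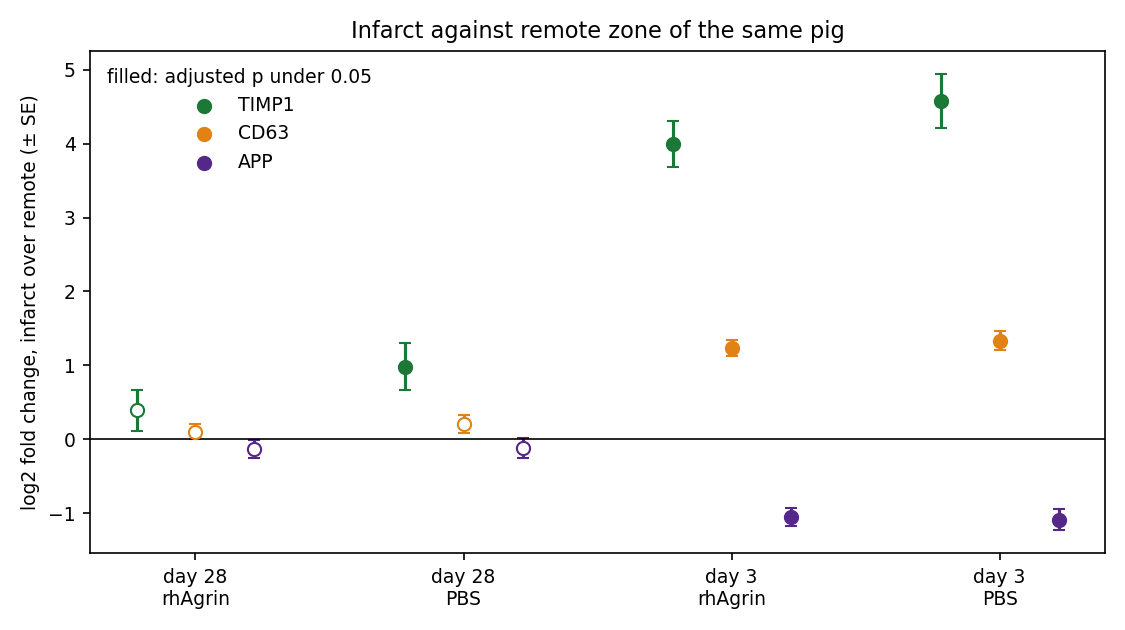
Log2 fold change of TIMP1, CD63 and APP, infarct zone over remote zone of the same pig, for each day and treatment. Points are edgeR estimates, bars are standard errors, and filled points had an adjusted p under 0.05. TIMP1 was at 0.39 and 0.98 on day 28 and at 4.00 and 4.58 on day 3, with CD63 above and APP below 0 on day 3.

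The second question was how the difference between zones changed over time. With TMM scaling all 3 genes had a zone difference that was smaller on day 28 than on day 3, in both treatments. For TIMP1 the change was -3.61 ± 0.41 in rhAgrin pigs (edgeR adjusted p = 7.99e-06) and -3.60 ± 0.47 in PBS pigs (adjusted p = 7.41e-05). For CD63 it was -1.13 ± 0.15 and -1.13 ± 0.17 in rhAgrin and PBS pigs (adjusted p = 2.58e-05 and 0.000233), and for APP 0.92 ± 0.17 and 0.97 ± 0.20 (adjusted p = 0.000409 and 0.00166). With library totals alone the value for APP in rhAgrin pigs was 0.29 (adjusted p = 0.136) and no longer passed the test. By that test 29.8% of genes had a lower and 26.5% a higher zone difference on day 28 in rhAgrin pigs, and 22.3% and 20.6% in PBS pigs, whereas with library totals alone 1991 of 10196 called genes in rhAgrin pigs and 1968 of 7192 in PBS pigs were higher. Within the infarct zone, TIMP1 was lower on day 28 than on day 3 by 18-fold in rhAgrin pigs (log2 -4.17 ± 0.35, adjusted p = 1.33e-06) and by 10.01-fold in PBS pigs (-3.32 ± 0.38, adjusted p = 4.94e-05), where 29.5% and 21.7% of 14968 genes were lower. CD63 was lower by 1.16 ± 0.14 and 1.09 ± 0.16, and APP higher by 1.05 ± 0.14 and 0.94 ± 0.16, in rhAgrin and PBS pigs, all past the threshold, where 32.4% and 25.6% of genes were higher (with library totals alone 2378 of 9792 and 2062 of 6535 called genes).

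In the remote zone none of the 3 genes passed the test between days or between treatments, and edgeR called 0 of 14324 genes in each of these 4 contrasts, with 554 to 1465 at an unadjusted p under 0.05 and 1 to 93 called by DESeq2. The largest differences there were those of TIMP1, at -0.70 ± 0.30 between day 28 and day 3 in rhAgrin pigs (adjusted p = 0.544) and at -0.69 ± 0.32 between rhAgrin and PBS pigs on day 28 (adjusted p = 0.967).

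The third question was whether rhAgrin changed the members. On day 3 it did not pass the test for any of them in the infarct zone: the log2 differences, rhAgrin over PBS, were -0.35 ± 0.33 for TIMP1, -0.18 ± 0.15 for CD63 and -0.03 ± 0.14 for APP (adjusted p = 1 for each). In that contrast edgeR called 0 of 14968 genes, with 170 at an unadjusted p under 0.05 and 0 called by DESeq2. On day 28 TIMP1 was lower in the infarct zone of rhAgrin pigs, at 13.6 to 26.5 CPM, against 28.9 to 67.9 CPM in PBS pigs, and the groups did not overlap. The share of all genes without overlap between these groups was not counted. The log2 difference was -1.20 ± 0.33 (2.29-fold lower, 4 against 3 pigs, edgeR adjusted p = 0.0462), where 6.02% of 14968 genes were lower and 1.3% higher. The number of genes called moved with single pigs, to 148 without animal 544, 187 without 519, 188 without 523, 425 without 522, 677 without 548, 695 without 576 and 2137 without 536, and DESeq2 called 2462. The call rests on few pigs. Without animal 523, whose infarct zone held 67.9 CPM, the difference was -0.76 (adjusted p = 0.256), and the adjusted p was also over 0.05 without animals 519, 522, 544, 570, 571, 572, 573, 575 or 577, each left out in turn, with differences of -1.05 to -1.22. Without animals 573 and 577 together it was -1.19 (adjusted p = 0.0739).

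In the remote zone of day 28 TIMP1 overlapped between treatments, with 12.7 to 17.9 CPM in rhAgrin pigs, against 11.9 to 33.9 CPM in PBS pigs. The test of the difference in zone change between treatments gave -0.59 ± 0.43 for TIMP1 on day 28 (adjusted p = 0.439) and -0.58 ± 0.43 on day 3 (adjusted p = 1), so a treatment effect on the infarct response of TIMP1 was not shown. In this test edgeR called 0.668% of genes on day 28, where DESeq2 called 1068 genes and leaving out 1 pig in edgeR gave 3 (without animal 536) to 473 (without animal 547). It called 0 on day 3, with 684 at an unadjusted p under 0.05 and 6 called by DESeq2 on day 3. CD63 and APP differed between rhAgrin and PBS infarct zones of day 28 by -0.25 ± 0.15 (adjusted p = 0.275) and 0.08 ± 0.14 (adjusted p = 0.746).

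Ratios of read counts between 2 members within a library do not depend on how libraries are scaled, and they show how the ligand stood to its partners. In infarct zones of day 3 there were 0.595 to 1.37 TIMP1 reads per CD63 read in rhAgrin pigs and 0.850 to 1.21 in PBS pigs. Their remote zones held 0.0834 to 0.180 TIMP1 reads per CD63 read in rhAgrin pigs and 0.0901 to 0.119 in PBS pigs. Over the 7 pigs of day 3 the TIMP1 to CD63 ratio was 7.92-fold higher in the infarct zone (log2 2.98 ± 0.75 SD), the TIMP1 to APP ratio 40.4-fold higher (5.34 ± 0.95) and the CD63 to APP ratio 5.10-fold higher (2.35 ± 0.35). Each ratio was higher in 7 of 7 pigs (exact two-sided sign-flip permutation p = 0.0156, the smallest 7 pigs can give, adjusted p = 0.0312 over 6 tests). Ligand and receptor therefore did not keep 1 ratio: TIMP1 gained on both partners, and CD63 gained on APP.

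On day 28 the same ratios were 1.41-fold (TIMP1 to CD63, log2 0.49 ± 0.34 SD), 1.70-fold (TIMP1 to APP, 0.77 ± 0.46) and 1.21-fold (CD63 to APP, 0.28 ± 0.18) higher in infarct zones. Each was higher in 6 of 7 pigs (exact sign-flip permutation p = 0.0312, adjusted p = 0.0312), with animal 519 as the exception, and leaving out any 1 of the others raised the adjusted p to 0.0625. Between days, the infarct zone held a TIMP1 to CD63 ratio that was lower on day 28 by 2.65 on the log2 scale, a TIMP1 to APP ratio lower by 4.77 and a CD63 to APP ratio lower by 2.13 (exact permutation of the day labels within treatment, 14 pigs, p = 0.00143 and adjusted p = 0.00286 for each). In the remote zone the corresponding differences were -0.16, -0.21 and -0.05 (exact permutation, adjusted p = 0.66, 0.66 and 0.737).

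Between treatments, the infarct to remote change of the TIMP1 to CD63 ratio on day 28 was 0.28 ± 0.21 (SD, n = 4) in rhAgrin pigs and 0.77 ± 0.27 (SD, n = 3) in PBS pigs on the log2 scale. The 2 sets of pigs did not overlap, but the difference of -0.49 had an exact permutation p = 0.0571, the smallest that 4 against 3 pigs allow (adjusted p = 0.171 over 6 tests). The design cannot reach 0.05 here, nor in the other 5 such tests.

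**Figure D3:**
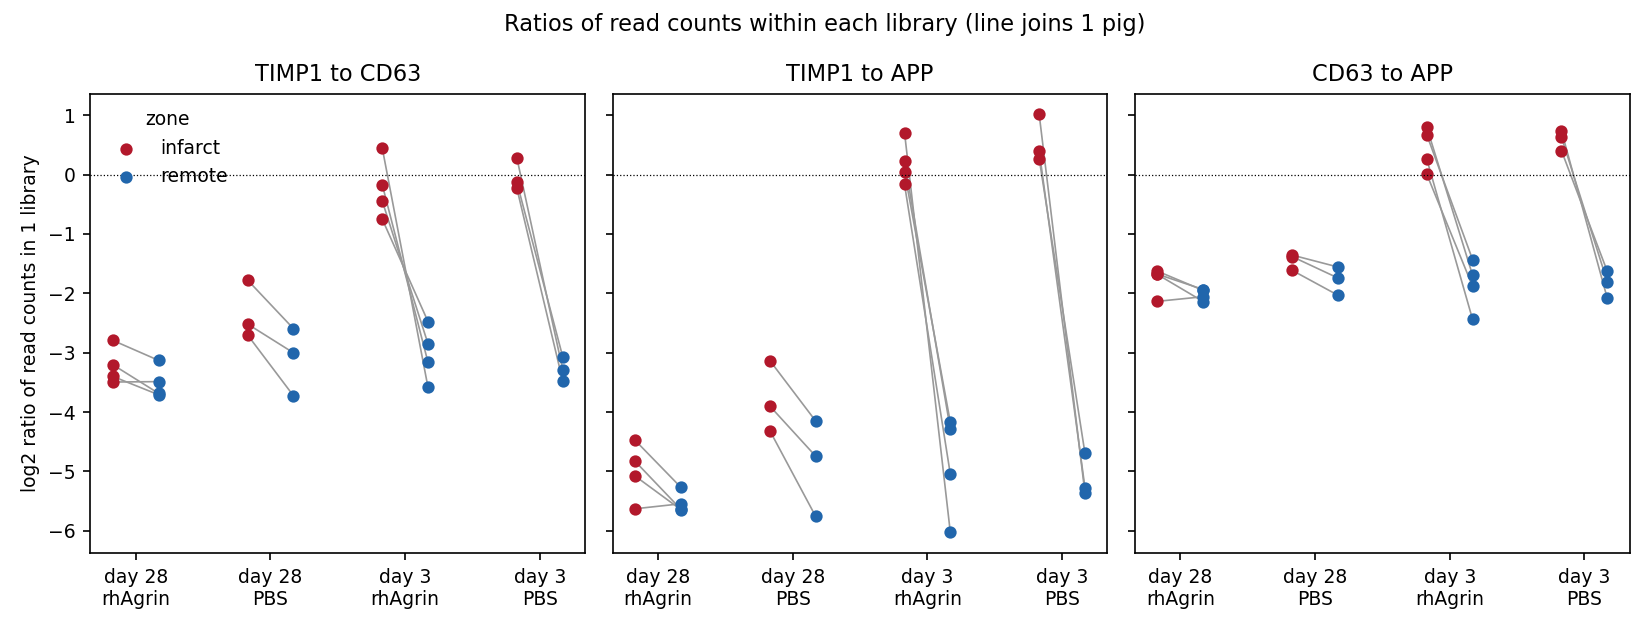
Log2 ratio of read counts of TIMP1 to CD63, TIMP1 to APP and CD63 to APP in each library, by day and treatment, with infarct zones left of remote zones and a line for each pig. The dotted line marks equal read counts. In infarct zones of day 3 the ratios lie between -0.75 and 1.01, and in all other groups at or below -1.36.

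Levels of different genes can be compared only per length. Per kb of RefSeq exon, TIMP1 was at 526 ± 193 CPM in rhAgrin and 666 ± 161 CPM in PBS infarct zones of day 3 (SD), CD63 at 310.5 ± 38.5 and 349 ± 16.03 CPM, and APP at 87.1 ± 12.7 and 87.8 ± 9.84 CPM. In the remote zones of day 3 TIMP1 was at 33.3 ± 12.5 and 27.9 ± 4.69 CPM per kb in rhAgrin and PBS pigs, CD63 at 134 ± 10.3 and 140.3 ± 15.7, and APP at 188 ± 46.1 and 189 ± 17.2. By this measure the order in day 3 infarct zones was TIMP1, CD63, APP in 7 of 7 libraries, and TIMP1 was last in every other library. The RefSeq model of TIMP1 lacks its 5′ end and the authors counted over another annotation, which bears on the comparison of TIMP1 with CD63: per kb of coding sequence TIMP1 was above CD63 in 4 of those 7 libraries and above APP in 7.

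Other known TIMP1 receptors were looked at next. CD44, the hyaluronan receptor, rose in infarct zones of day 3, with 135 ± 10.2 CPM in rhAgrin infarct zones against 35.0 ± 7.62 CPM in remote zones, and 149.6 ± 21.0 CPM in PBS infarct zones against 32.2 ± 5.28 CPM in remote zones (log2 1.99 ± 0.18 and 2.23 ± 0.21, edgeR adjusted p = 2.49e-07 and 5.45e-07). The tetraspanin CD82 also rose, by 0.91 ± 0.13 and 1.02 ± 0.15 (adjusted p = 2.56e-05 and 4.37e-05). CD74, the invariant chain, rose by 0.41 ± 0.14 in rhAgrin pigs (adjusted p = 0.0176) and stood at 0.36 ± 0.16 in PBS pigs (adjusted p = 0.0617). With library totals alone CD74 was at 1.01 in PBS pigs (edgeR adjusted p = 8.65e-05). On day 28 in PBS pigs CD44 rose by 0.62 ± 0.20 (adjusted p = 0.0367), whereas CD82 fell by 0.46 ± 0.15 (adjusted p = 0.0397). Over all genes 12.7% rose and 12.3% fell there. The call of CD82 is marginal: it was lost without animal 523 and with library totals alone, where 0 genes of all lists fell. CD44 was lower in rhAgrin than in PBS infarct zones of day 28 by 0.85 (adjusted p = 0.0158). LRP1 was not analysed here.

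The other inhibitors measured, TIMP3 and TIMP4, did not follow TIMP1 with TMM scaling. TIMP3, which binds to the matrix, fell in infarct zones of day 3 to 148 ± 55.1 CPM in rhAgrin pigs, against 424 ± 122 CPM in remote zones, and to 140.3 ± 34.5 CPM in PBS pigs, against 458 ± 89.0 CPM in remote zones (log2 -1.52 ± 0.19 and -1.70 ± 0.22, edgeR adjusted p = 6.66e-06 and 1.16e-05). TIMP4, the inhibitor known for its expression in the heart, did not pass the test, at 0.45 ± 0.22 in rhAgrin pigs (adjusted p = 0.0793) and -0.22 ± 0.26 in PBS pigs (adjusted p = 0.472). This depends on the scaling: with library totals alone TIMP4 was at 1.16 in rhAgrin pigs (edgeR adjusted p = 0.000142) and at 0.44 in PBS pigs (adjusted p = 0.116). TIMP2 was not analysed here.

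Of 11 tested metalloproteases that TIMPs inhibit, 7 rose and 2 fell in PBS infarct zones of day 3, with a median log2 fold change of 1.03 against 0.04 over all genes, of which 34.6% rose and 32.2% fell. MMP9, a gelatinase of neutrophils and macrophages, stood at 239 ± 116 CPM in infarct zones and 0.53 ± 0.122 CPM in remote zones (log2 8.72 ± 0.38, edgeR adjusted p = 1.18e-09). MMP19 rose by 3.73 ± 0.19. MMP12, the macrophage elastase, was at 0.697 ± 0.597 CPM in infarct zones and 0.0298 ± 0.0516 CPM in remote zones, and MMP3 at 0.381 ± 0.0339 CPM in infarct zones and 0 CPM in all remote zones, both too low for a firm fold. MMP11 fell by 2.697 ± 0.35 and MMP15 by 1.62 ± 0.24. On day 28, 5 of the 11 rose in PBS infarct zones and 0 fell, and 5 were lower in rhAgrin than in PBS infarct zones, where 12.7% of all genes rose, 12.3% fell and 6.02% were lower. Such calls lean on animal 523: without it, over all lists, 11 instead of 18 genes rose and 5 instead of 14 were lower. Among the 5 lower was MMP12, at only 0.0599 CPM in rhAgrin and 0.818 CPM in PBS infarct zones. MMP9, also among them, varied widely in PBS infarct zones (7.40 ± 9.11 CPM, SD).

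Among tetraspanins and CD63 partners, 9 of 12 rose and 1 fell in PBS infarct zones of day 3 (median 1.00), against 34.6% and 32.2% of all genes. The leukocyte tetraspanins CD53 and CD37 rose by 3.98 ± 0.20 and 2.96 ± 0.17, CD9 by 2.72 ± 0.20 and TSPAN15, a partner of the protease ADAM10, by 1.55 ± 0.16, each more than CD63. TSPAN3 fell by 0.70 ± 0.12. Of 11 genes of lysosome and endosome membranes and their regulators, 9 rose and 2 fell (median 0.93, against 34.6% and 32.2% of all genes), among them the proteases CTSB (3.12 ± 0.16) and CTSD (1.86 ± 0.25), the cholesterol transporter NPC1 (1.56) and the membrane protein LAMP1 (1.36), while the regulators MITF and TFEB fell by 1.72 ± 0.21 and 0.58 ± 0.10. On day 28 these lysosomal genes counted 0 that rose and 1 that fell in PBS pigs. Over all genes 12.7% rose and 12.3% fell there.

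Of 11 genes of the APP family and of APP processing, 5 rose and 3 fell in PBS infarct zones of day 3 (median 0.42), near the 34.6% and 32.2% of all genes. The relative APLP1 rose by 1.14 ± 0.14, and the γ-secretase subunits APH1A and NCSTN rose by 0.71 and 0.51. The adaptor APBB1 fell by 1.00 ± 0.12, the sorting receptor SORL1 by 0.60 and the β-secretase BACE1 by 0.47, beside APP itself. Of 17 cytokines, receptors and transcription factors known to induce TIMP1, 12 rose and 2 fell (median 1.39, against 34.6% and 32.2% of all genes). RUNX2 rose by 5.35 ± 0.42, and the low-expressed IL11, FOSL1 and LIF by 4.42 ± 0.75, 4.35 ± 0.80 and 4.33 ± 0.50, while JUN fell by 0.87 ± 0.21 and IL6ST, the shared receptor chain of the IL-6 family, by 0.36.

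Over all these lists 44 of 67 tested genes rose and 11 fell in PBS pigs on day 3, and 48 rose and 9 fell in rhAgrin pigs. Over all genes 34.6% rose and 32.2% fell in PBS pigs, and 37.6% and 33.1% in rhAgrin pigs. With library totals alone 5 fell in PBS pigs and 4 in rhAgrin pigs. BACE1, SORL1, TFEB and IL6ST in PBS pigs, and BACE1, TFEB and TSPAN3 in rhAgrin pigs, then changed sign and no longer passed the test. TSPAN3 (-0.05) and JUN (-0.22) in PBS pigs, and APBB1 (-0.07) and JUN (-0.26) in rhAgrin pigs, kept their sign but no longer passed either. The falls of these genes in these pigs hold only relative to the bulk of genes. Without animals 573 and 577 the counts were 45 and 10 in PBS pigs and 45 and 9 in rhAgrin pigs. On day 28, 18 rose and 3 fell in PBS pigs (11 and 0 without animal 523) and 0 in rhAgrin pigs, and 14 were lower and 1 higher in rhAgrin than in PBS infarct zones (5 and 0 without animal 523), where over all genes 12.7% rose and 12.3% fell in PBS pigs and 6.02% were lower and 1.3% higher in rhAgrin infarct zones. Without animal 523 the calls over all genes were 852 between zones (637 higher) and 188 between treatments (23 higher).

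**Figure D4:**
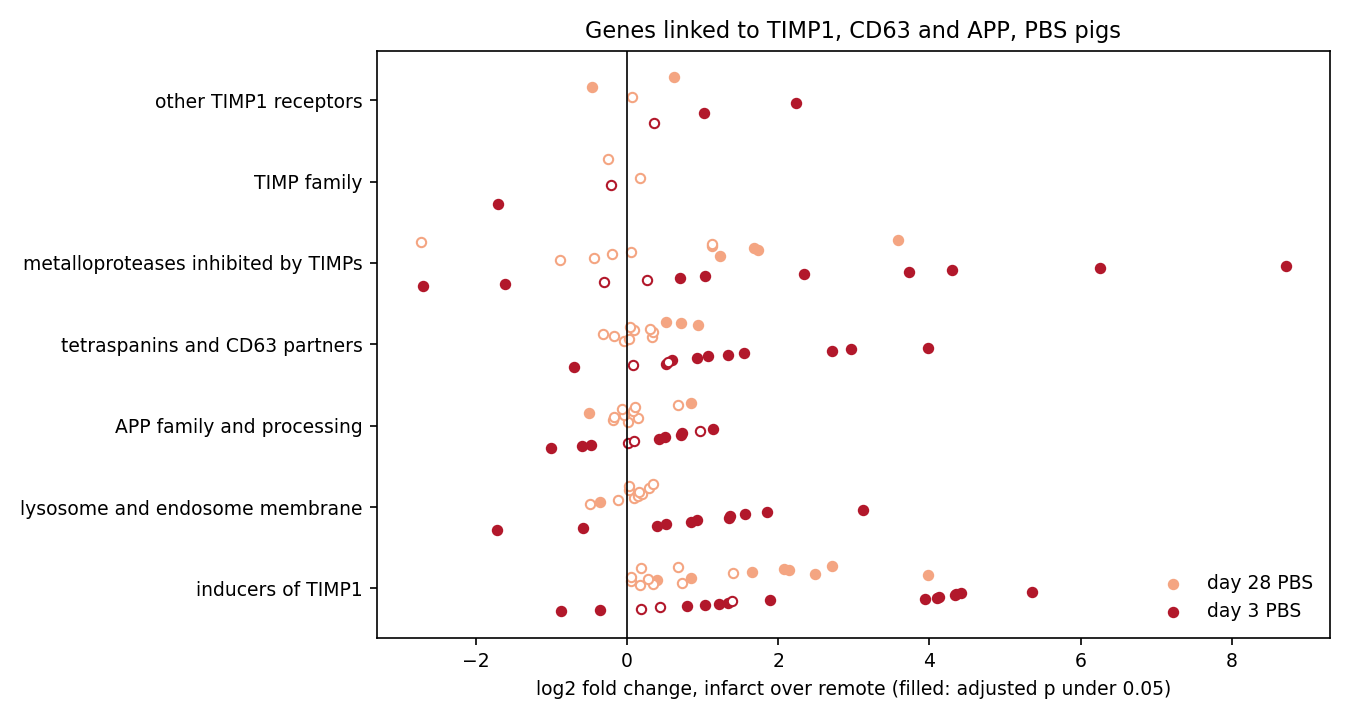
Log2 fold change, infarct over remote zone, of each measured gene linked to TIMP1, CD63 and APP, by list, in PBS pigs of day 28 and day 3. Filled points had an edgeR adjusted p under 0.05. On day 3, 44 of 67 genes rose and 11 fell, and on day 28, 18 rose and 3 fell. Over all genes 34.6% rose and 32.2% fell on day 3, and 12.7% and 12.3% on day 28.

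In bulk tissue a change in the number of cells of a type and a change in RNA per cell cannot be told apart, and marker genes moved with the members. In PBS infarct zones of day 3, 9 of 9 macrophage markers (among them CD68 and CSF1R) rose and their summed level was 1721 to 2542 CPM, against 193 to 207 CPM in remote zones. The 9 markers of activated fibroblasts (among them POSTN and COL1A1) also all rose, with sums of 26700 to 47590 CPM in infarct zones against 6481 to 15950 CPM in remote zones. The 8 measured cardiomyocyte markers all fell, with sums of 2289 to 16230 CPM in infarct zones against 66190 to 73700 CPM in remote zones. In no group was a marker of these 3 lists at 0 in all libraries. The part of these cell types in the values of TIMP1, CD63 and APP was not tested.

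The members were set against these sums. In PBS pigs of day 3 there were 9.11 to 22.8 CPM of TIMP1 per 1000 CPM of activated fibroblast markers in infarct zones, against 1.49 to 2.66 CPM in remote zones. In rhAgrin pigs of day 3 the zones overlapped, at 5.25 to 19.8 CPM in infarct zones, against 2.697 to 5.86 CPM in remote zones. CD63 and APP are given for PBS pigs of day 3, except where rhAgrin pigs are named. CD63 stood at 179.8 to 276 CPM per 1000 CPM of macrophage markers in infarct zones, against 873 to 1013 CPM in remote zones. Per 1000 CPM of activated fibroblast markers CD63 stood at 9.98 to 18.75 CPM in infarct zones and 12.47 to 26.56 CPM in remote zones, which overlapped. The overlap came only from the remote library of animal 573, with a marker sum of 15950 CPM, and the next remote value was 25.95 CPM. In rhAgrin pigs of day 3 CD63 stood at 8.84 to 19.76 CPM in infarct zones and 26.9 to 42.28 CPM in remote zones, without overlap. APP stood at 22.2 to 129 CPM per 1000 CPM of cardiomyocyte markers in infarct zones, against 8.35 to 10.8 CPM in remote zones. These are descriptions without a test, and the fibroblast sum is carried by abundant collagens: in PBS pigs of day 3 COL1A1 and COL3A1 rose by 2.15 and 1.15 on the log2 scale, CTHRC1 and FN1 by 4.54 and 4.28, close to TIMP1, and SFRP2 by 11.09, more than TIMP1. On day 28 TIMP1 was at 1.16 to 2.72 CPM per 1000 CPM of activated fibroblast markers in PBS infarct zones, against 3.23 to 4.05 CPM in remote zones. The infarct library of animal 523 held 58640 CPM of activated fibroblast markers, against 14320 and 17100 CPM in the other PBS infarct zones of day 28, and 9113 CPM of cardiomyocyte markers. Its part in the TIMP1 difference between treatments was not tested beyond the values without this pig given above.

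Likeness of pattern was measured over 12919 named genes as Pearson r of log2 CPM across the 28 libraries, which share the same zones, days and depth. The genes most like TIMP1 were SEC61B (r = 0.99), PLEKHO1, ACTG1, SLC11A1 and SPP1. CD63 ranked 25 for TIMP1 with r = 0.98, and APP had r = -0.93. The genes most like CD63 were XPO6, CFL1, ENO1, YKT6 and CLTA, and those most like APP were TMEM106B, GULP1, PCSK6, SSPN and ZNF248. With the means of the 8 groups subtracted, the genes most like TIMP1 were UCHL1 (r = 0.82), MCUB, SEC61B, PHLDB3 and ACTG1, and CD63 was at r = 0.60, rank 283. For CD63 they were RPL36AL (r = 0.83), DNASE1L1, SEC61B, TMED9 and STT3A, and for APP CDHR1 (r = 0.80), ZNF614, TMEM106B, ZNF644 and TMEM47.

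Within 1 zone and day the 7 pigs gave 12 correlations between members, none with an adjusted p under 0.05. The closest was that of TIMP1 with CD63 in infarct zones of day 28 (Pearson r = 0.88, exact permutation p = 0.00913, adjusted p = 0.1095, and Spearman rho = 0.71, exact permutation p = 0.0881, adjusted p = 0.352). Without the 2 pigs farthest from the median of TIMP1 it was r = 0.62, and with the treatment means subtracted r = 0.78. In infarct zones of day 3, where TIMP1 was highest, the r of TIMP1 with CD63 was 0.33 (exact permutation p = 0.488, adjusted p = 0.532, and Spearman rho = 0.25, exact permutation p = 0.595, adjusted p = 0.714) and 0.29 without the 2 farthest pigs. The relation of TIMP1 to APP in these zones was r = 0.39 on day 3 (exact permutation p = 0.355, adjusted p = 0.476, Spearman rho = 0.50) and r = -0.65 on day 28 (exact permutation p = 0.0631, adjusted p = 0.248, Spearman rho = -0.75). With library totals alone the day 28 value turned to r = 0.88, so its sign depends on the scaling.

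Letter patterns of 6 factors or elements were searched on both strands of the 250 bases before the RefSeq start of CD63 and APP (TIMP1 was left out because its model lacks the 5′ end). The AP-1 pattern TGAGTCA, the STAT pattern TTCNNNGAA, the RUNX pattern TGTGGT, the E-box CACGTG and the TATA box TATAAA had no match in either window. In that order they matched in only 2.87%, 6.13%, 13.9%, 6.43% and 9.69% of such windows of all genes, so a lack of matches is common. The GC box GGGCGG matched once in APP, 152 bases before the start, and in 46% of 19264 such windows of all genes.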

How the data were processed

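The authors trimmed single-end reads of poly(A) RNA with cutadapt, aligned them with STAR 2.7.3a to pig genome build Sscrofa11, collapsed reads that shared a unique molecular identifier (Picard 2.22.4) and counted uniquely mapped reads over Ensembl genes with HTSeq. Whether counting used strand is not given in the sources used here. The deposited tables hold raw counts per gene, and the authors' normalized tables were not used. Counts were tested with edgeR 4.0.16 (R 4.3.3; quasi-likelihood, TMM, filterByExpr, Benjamini-Hochberg adjustment over all genes tested, threshold 0.05), in 1 fit of 28 libraries with the pig as block for zones, and in 1 fit per zone otherwise. Both zones of a pig share its number. Residuals of the zones correlated in all 14 pigs (0.12 to 0.64), but zones of different pigs were not compared, so these values do not show the pairing. DESeq2 1.42.0, other scalings, no filter, no block and leaving out each pig were alternatives. Ratios used counts + 0.5 and exact permutation tests over every arrangement, written in Python 3.11.15. Levels are CPM over TMM-scaled totals. The tests were checked on simulated data. TIMP1, CD63 and APP, and the lists, were chosen with earlier results of these data known. Leaving out animals 573 and 577 together, and animal 523 for counts of list genes, was added after the data had been seen. From the lists, all measured TIMP1 receptors and TIMPs were named, and of each other list up to 4 genes each way with the largest change in PBS pigs on day 3 past the threshold, of which 1 is not reported here. Sequences and positions are from RefSeq (Sscrofa11.1). Symbols were in the file for 13009 genes and from a table for 661.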

Additional observations from a re-analysis of the deposited data

Results flagged for a closer look

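Results were picked out by 2 rules: a library far from the other 3 of its group, or a zone effect that differed between days by a test. For libraries, the gap to the nearest other was set against the whole range of the group, and 24 groups of 4 were examined; chance picks about 1 in 20. The TIMP1 level of animal 576, at 583 CPM in the rhAgrin infarct zone of day 3, against 288 to 320.1 CPM in the other 3, had a gap of 0.849 of the range on the log2 scale. Without this pig the log2 fold change of TIMP1 between zones was 3.56. The CD63 to APP ratio of animal 519, at -2.13 on the log2 scale in the rhAgrin infarct zone of day 28, against -1.68 to -1.63 in the other 3, had a gap of 0.89 of the range. The same pig was the only one with less TIMP1 in its infarct zone than in its remote zone.

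Between day 28 and day 3 the zone difference, on the log2 scale in edgeR, changed by -3.61 for TIMP1, -1.13 for CD63 and 0.92 for APP in rhAgrin pigs, and by -3.60 for TIMP1, -1.13 for CD63 and 0.97 for APP in PBS pigs.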

How the results depend on the processing

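Over all results and alternatives, 1357 of 1420 values kept their direction and their side of the threshold. The differences of TIMP1, CD63 and APP between zones on day 3 kept both under every alternative run. Leaving out each pig gave log2 differences of 3.56 to 4.33 (rhAgrin) and 4.30 to 4.77 (PBS) for TIMP1. For TIMP1 between zones on day 28 in PBS pigs the call was lost without a filter on low counts (0.97, adjusted p = 0.0515) and ran from 0.84 to 1.16 with each pig left out. Without the replicate block it was 0.96 (adjusted p = 0.0997), and the block changed no other call. For TIMP1 between rhAgrin and PBS infarct zones on day 28, leaving out each pig gave -1.43 to -0.76, and leaving out animals 573 and 577, an alternative chosen after seeing the data, gave -1.19.

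With library totals alone, which moved the median of all genes by 0.76 (day 3 rhAgrin), 0.69 (day 3 PBS) and 0.33 (day 28 PBS), CD63 passed the test between zones on day 28 in PBS pigs (0.54, adjusted p = 0.00836), the change of the APP zone difference between days in rhAgrin pigs did not (0.29, adjusted p = 0.136), and APP on day 28 in PBS pigs was at 0.22, the other sign (adjusted p = 0.214). Under it 4 and 5 list genes fell on day 3 in rhAgrin and PBS pigs, 34 rose and 0 fell on day 28 in PBS pigs, 0 were higher in rhAgrin than in PBS infarct zones, and r of TIMP1 with CD63 in infarct zones of day 28 was 0.98 (exact permutation, adjusted p = 0.00476). DESeq2 gave 4 list genes higher in rhAgrin infarct zones of day 28. There 0 were higher without animals 573 and 577, and without animal 523 0 were higher and 5 lower, while 11 rose and 0 fell between zones in PBS pigs. Over all genes, 5161 of 5652 called genes rose between those zones with library totals alone, and 637 of 852 without animal 523. Between treatments 70 of 1602 called genes were higher with library totals alone and 843 of 2462 with DESeq2. Without animals 573 and 577 it was 71 of 629, and 23 of 188 without animal 523.

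With the median of the differences the log2 ratios between zones were 2.99 (TIMP1 to CD63), 4.97 (TIMP1 to APP) and 2.43 (CD63 to APP) on day 3 and 0.48, 0.81 and 0.32 on day 28. A sign-flip test on the median of 7 differences cannot pass the threshold, so it says nothing on these ratios. Without animals 573 and 577 they were 3.11, 5.58 and 2.47 on day 3 and 0.49, 0.77 and 0.28 on day 28 (exact permutation, adjusted p = 0.0625, where 5 pigs of day 3 limit the test). Leaving out each pig gave 0.40 to 0.58, 0.66 to 0.91 and 0.25 to 0.34 on day 28. Except where fewer pigs were tested, the cause of these changes was not tested.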
